A study of Homo sapiens with 7 samples.

Results

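Replication timing of K562 cells was profiled on 2 arrays of the same design that differed in the titled cell sorting method, new in one case and old in the other. These are 2 of the 7 arrays of the series and were chosen by their titles. K562 is a suspension line established from a chronic myeloid leukaemia, carries the BCR-ABL1 fusion and has erythroid and megakaryocytic features. The labels name no genetic change or drug for either K562 culture, and both received 50 µM bromodeoxyuridine (BrdU) for 2 h, after which cells were fixed, stained with propidium iodide for DNA content and sorted. Per the labels' protocols, 80000 cells were sorted into an early (S1) and a late (S2) fraction of S phase, and the BrdU-containing DNA was recovered with an antibody, put through whole-genome amplification and coupled to Cy3 for the early or Cy5 for the late fraction. The protocol text is the same for both arrays, so how the sorting methods differed is not given in the sources used here. Each method was represented by 1 array, so no test was possible and all differences below are descriptions of these arrays. Sorting method, culture, amplification, labelling, slide and scan cannot be told apart.

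Mammalian chromosomes replicate in large domains that fire early or late in S phase. Early domains are usually gene-rich, active and located in the nuclear interior, late domains are usually gene-poor and lie near the lamina or the nucleolus, and timing transition regions connect the domain kinds. Cell types differ in a part of their domains, and very long tissue-specific genes that are silent often lie in late domains. The question posed by the titles was whether a profile obtained after the new sorting gave the timing seen after the old sorting.

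Timing was expressed as log2 of the early over the late signal after background correction, centred on the median autosomal probe of each array, so that positive values are earlier than that probe. Across chromosomes 1 to 22, 160666 probes kept on both arrays, with a median spacing of 13.1 kb, gave 22925 windows of 100 kb (genome build hg19, per the file headers) with a median of 7 probes each. The arrays differed most in the early channel. Net signal was taken as the spot mean less the median of the array's negative-control spots in that channel. In the early channel its median was 188 units after new and 30.4 units after old sorting. The late channel had 214 and 113 units. The share of probes well above background in both channels was 52.7% after new and 40.5% after old sorting.

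The K562 label was checked on the summed signal of both channels, relative to the U2OS arrays of the series (an osteosarcoma line). CDKN2A and MTAP, neighbours at 9p21 that K562 has lost, were at or near background. MTAP had median net signals of -5.76 (early) and -12.2 (late) units after new and -0.65 and -0.89 units after old sorting. CDKN2A had -2.02 and 5.10 units after new and 6.55 and 17.4 units after old sorting. A fold against U2OS would rest on a floor and is not given. The fusion partners were higher than on the U2OS arrays, with BCR at 0.97 and 1.13 and ABL1 at 2.29 and 2.20 on the log2 scale. For both, single U2OS arrays deviated from the other U2OS arrays by -0.62 to 0.48. CDKN2B carried no probe with its name. The qPCR controls named in the protocol lay on their labelled sides on both arrays. BMP1, a metalloproteinase gene used as the early control, read 0.57 after new and 0.77 after old sorting (3 probes). DPPA2, a pluripotency-associated gene used as the late control, read -1.97 and -0.41 (2 probes). None of the BMP1 probes after new sorting and none of the DPPA2 probes after old sorting was well above background in both channels. The SD over probes was 0.98 for BMP1 after new and 0.78 for DPPA2 after old sorting, above the size of each mean.

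The profiles shared their order and differed in amplitude. Over windows, Pearson's r was 0.791 and Spearman's rho 0.803 (n = 22925 windows, which share array, probes and neighbours and are not independent replicates). Both arrays called 42.2% of windows early and 45.1% late. The remaining windows had opposite signs, 2910 of 22925, a percentage of 12.7. They were divided almost evenly between 1430 windows early after new and late after old sorting and 1480 windows late after new and early after old sorting. The spread of timing values was smaller after old sorting, with a median absolute deviation (MAD) of 0.52 against 1.16 log2 units, a ratio of 0.446. The array labelled 44k, a further K562 array with an unstated sorting method, correlated at 0.952 with the new-sorting profile and at 0.789 with the old-sorting profile over the 15704 windows in which it had at least 2 probes.

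**Figure D1:**
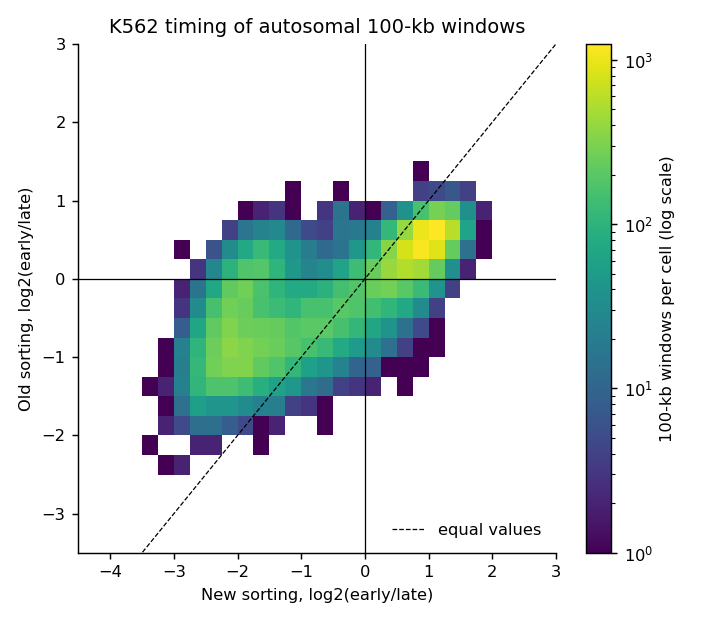
Timing of 22925 autosomal 100-kb windows after new sorting (x axis) and old sorting (y axis), both as log2(early/late), with colour giving the number of windows per cell on a log scale. The cloud is flatter than the dashed line of equal values, and 12.7% of windows lie in the upper left and lower right parts, where the signs are opposite.

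At a threshold of 1 log2 unit, 6105 windows differed (26.6%). Of these, 414 were earlier after new sorting (1.81% of all windows) and 5691 were later (24.8%), so the differences were mostly late windows that read less late after old sorting. With both arrays scaled to the same MAD, the numbers were 2465 earlier and 2844 later, so the directions were then close to even. Window size had little bearing on r, which was 0.800 at 50 kb and 0.786 at 1000 kb. The scaled difference itself was correlated along chromosomes, with r = 0.703 between windows 100 kb apart and 0.271 at 1000 kb, so neighbouring windows tended to deviate the same way.

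The choice of background correction and dye normalization moved the share of opposite windows in both directions. It fell from 12.7% to 7.51% with the authors' deposited log ratio, to 7.82% with loess within arrays and to 8.21% with a correction offset of 0. It was 26.4% over the 7970 windows left when only probes well above background in both channels on both arrays were used. That setting left out probes with a dim channel and so also changed which windows were compared. Values stayed centred on the median of all autosomal probes. In these windows r was 0.854, against 0.791 over all windows, and the part of the selection was not tested. In that subset, 1131 windows were earlier and 113 later after new sorting by 1 log2 unit or more, against 414 and 5691 over all windows. The MAD ratio was 0.702 with the deposited log ratio, so the narrower range after old sorting was present there too but was smaller.

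The late fractions of the arrays were about as alike as the early fractions before any adjustment for probe brightness. As measured, the late signals correlated at 0.786 and the early signals at 0.776 over windows. After the brightness of each probe on the automated U2OS arrays was subtracted from every channel, these values were 0.838 and 0.666. The SD over windows then rose for the early signal after old sorting (0.415 to 0.514). It also rose for the late signals after new (0.786 to 0.886) and old sorting (0.633 to 0.697). Only the early signal after new sorting fell (0.869 to 0.813). The subtraction thus also adds a term shared by the channels, so these values are not agreement free of probe brightness. As measured, old-sorting timing correlated at -0.841 with the late signal of the new-sorting array and at 0.434 with its early signal. Against timing on the array labelled 44k, the early signal correlated at 0.799 after new and 0.582 after old sorting, and the late signal at -0.711 and -0.449. After the subtraction, these were 0.720 and 0.284 for the early signal and -0.732 and -0.523 for the late signal. Of the old-sorting channels, the early one therefore followed that array more closely as measured and the late one after the subtraction, with the same limit. These values are over the same windows, and the dim early channel after old sorting (30.4 units) moved with them. Its part in the result was not tested.

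The share of windows 1 log2 unit or more apart differed between timing classes. Windows were divided into 5 equal classes of 4585 by the mean of their ranks on both arrays. Median timing after new sorting ran from -2.13 in the latest class through -1.45, -0.11 and 0.75 to 1.12 in the earliest class. After old sorting it ran from -1.04 through -0.57, -0.06 and 0.34 to 0.61. The share of windows 1 log2 unit or more apart fell from 57.2% in the latest class to 2.09% in the earliest.

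The windows were also divided into 5 classes on each array alone, and 45.9% were in the same class on both. A further 44.1% were one class apart and 9.91% were further apart, and 12 windows were in the earliest class of one array and the latest class of the other. The share in the same class was 62.7% for the earliest windows by mean rank, 53.1% for the latest, and 30.8% for the late class, the lowest. Under the deposited log ratio 54.8% of windows were in the same class. Of the 2292 windows in the earliest decile of one array, 973 (42.5%) were in that of the other, and of the 2293 in the latest decile 872 (38.0%).

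**Figure D2:**
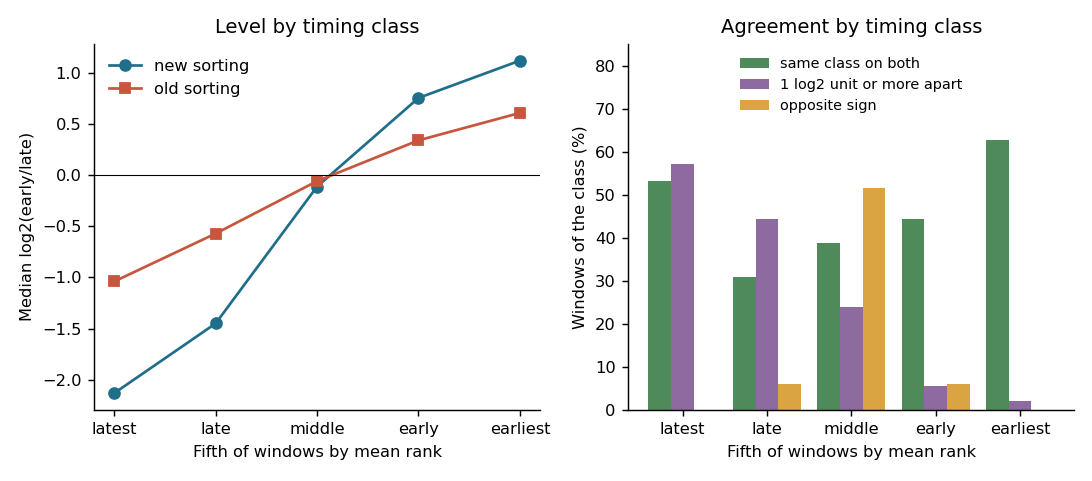
Left, median log2(early/late) after new and old sorting in 5 classes of 4585 windows by mean rank. Right, the percentage of each class that fell in the same class on both arrays, was 1 log2 unit or more apart, or had opposite signs; the same-class share is highest (62.7%) and the share 1 unit apart lowest (2.09%) in the earliest class.

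Classes set by the mean rank of these arrays fix part of that pattern, so classes were also taken from the array labelled 44k, which neither array chose. In its earliest class, 3.34% of 3140 windows had opposite signs between new and old sorting and r was 0.425. In its middle class 21.3% had opposite signs, where both profiles lie near 0, and r was 0.708. In its latest class 7.16% had opposite signs and r was 0.300, the lowest. The difference of 1 log2 unit or more was again most common in the latest class (67.7%), followed by the late class (598 of 3141 windows). It was lowest in the middle class (1.46%) and was 2.07% in the early and 5.73% in the earliest class, so here the lowest share and the highest r lay in the middle class and not in the earliest.

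Size of the new-sorting value did not order the sign changes on the late side. Windows with values above 0 by 1 to 2 log2 units had opposite signs in 1.26% of cases, and windows below 0 by 1 to 2 log2 units in 17.0%. Those below 0 by 0.5 to 1 log2 unit, closer to 0, had opposite signs in 7.16%. Windows late after new and early after old sorting were therefore not borderline after new sorting, with a median of -1.52, while the old-sorting median was 0.20. In the opposite case, windows early after new and late after old sorting, both medians were close to 0 (0.36 and -0.18).

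Where the array labelled 44k could be read, it took the new-sorting side in 624 of 671 windows (93.0%) that were late after new and early after old sorting. It took that side in 848 of 1060 windows (80.0%) of the other kind. The windows late after new and early after old sorting had median old-sorting signals of 14.1 units (early) and 62.9 units (late), against 57.0 and 108 units in windows early on both arrays. Of them, 63.8% were in the dimmest class of the old-sorting early channel.

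The correlation was lower in windows without a gene. Windows without a gene name on the array (3426, or 14.9% of windows) had r = 0.586, windows with 1 gene 0.768, and windows with 2 genes or with 3 or more 0.851 each. Spearman's rho was 0.548, 0.762, 0.837 and 0.716 in the same order, so by rank it was not highest in the windows with the most genes. Opposite signs were found in 18.8% of windows without a gene, in 13.5% and 9.65% of those with 1 and 2 genes, and in 8.85% of the 4135 windows with 3 or more genes. Gene-free windows were later on both arrays, with medians of -1.61 and -0.42, and windows with 3 or more genes were earlier, at 0.74 and 0.35. They were also dimmer in the old-sorting early channel, at a median of 24.9 against 49.9 units. Within the latest class by mean rank, 56.7% of windows without a gene and 50.5% of those with 3 or more were in the same class on both arrays, and within the earliest class 58.3% and 60.7%. The part of brightness in the gene-content result was not tested. With the deposited log ratio the shares of opposite windows were 10.1% without a gene and 7.18% with 3 or more, and with loess within arrays 8.84% and 9.60%, so the order between these groups turned under loess.

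Agreement was lowest where the early fraction was dim after old sorting. In the dimmest of 5 classes by early signal after old sorting (median 13.1 units), r was 0.539, and it was 0.816, 0.886, 0.869 and 0.778 in the next 4 classes. In the dimmest class 77.2% of windows were 1 log2 unit or more apart, and all 3538 were later after new sorting. Opposite signs were found in 20.7% of the dimmest class, and in 7.33%, 10.3%, 11.9% and 13.2% of the next 4. A dim early channel and late replication go together, and their parts in this were not told apart.

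Classes taken from the automated U2OS arrays, which do not involve K562 timing, gave r = 0.678 in the dimmest class and 0.854 in the brightest, with opposite signs in 19.7% and 12.2%. The dim-window result depended on the correction. In the dimmest class by the early signal after old sorting, 6.30% of windows were opposite under the deposited log ratio, 4.78% under loess within arrays and 8.92% at an offset of 0, below or close to the shares of the brighter classes. With r in place of sign, the dimmest class had the lowest value of the 5 under each of these: 0.454, 0.582 and 0.476. Probe GC content varied little (5th to 95th percentile 33.3% to 40.0%), and r lay between 0.766 and 0.812 in 5 classes of it.

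**Figure D3:**
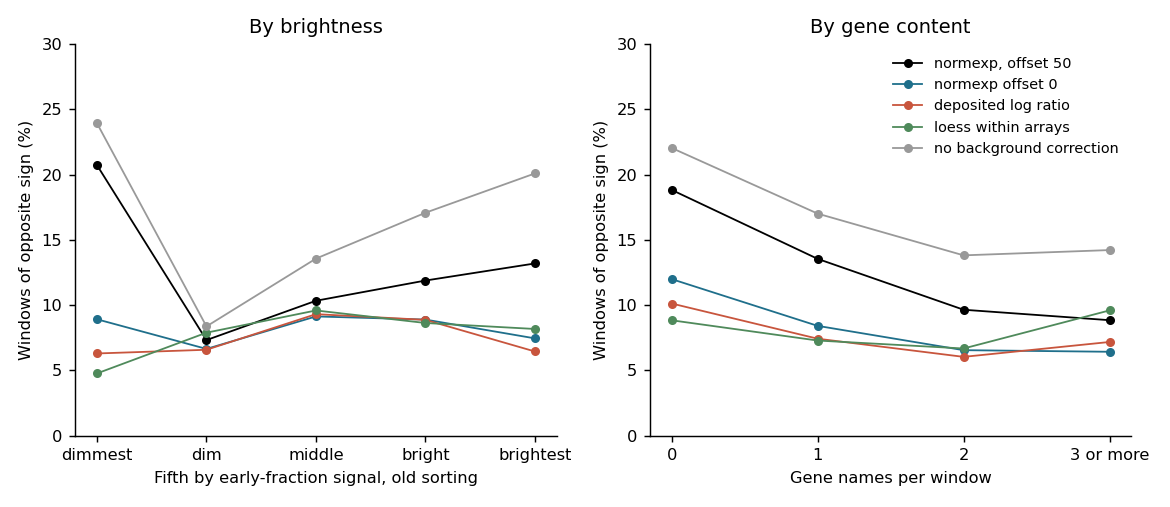
Percentage of windows with opposite signs, left by class of early-fraction signal on the old-sorting array and right by the number of gene names in the window, under 5 ways of correcting the signals (lines). In the dimmest class the percentage is 20.7% with the correction used here and 6.30% with the deposited log ratio, while the values for the middle class lie closer together.

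Chromosomes differed too. The correlation ranged from 0.636 on chromosome 4 to 0.869 on chromosome 15, and the share of opposite windows from 6.71% on chromosome 22 to 21.2% on chromosome 18. Chromosome 9, at 20.7%, was not uniform. On the stretch before its largest gap in windows (chr9:200001-39200000, most of the short arm), 35.5% of 332 windows had opposite signs and medians were -0.38 after new and 0.29 after old sorting. After the gap (chr9:71000001-141000000), 12.9% of 630 windows had opposite signs and medians were 0.35 and 0.16. The summed signal relative to U2OS was -0.64 log2 units on the first stretch and -0.04 on the second, and the early signal after old sorting was 23.3 and 42.7 units. The share on the first stretch was 24.4% with the deposited log ratio and 18.7% with loess within arrays, so its size depended on the correction. The first stretch includes CDKN2A and MTAP at 9p21, whose probes were at or near background, and windows there were not left out. With only probes well above background in both channels on both arrays, 52 windows of the stretch were left. Of these 30.8% were opposite, and the medians changed sides, at 0.42 after new and -0.07 after old sorting.

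The same relation to summed signal was seen over all windows. In the class with the lowest summed signal relative to U2OS, 531 windows were late after new and early after old sorting and 253 the reverse. In the highest class the numbers were 107 and 311. With loess within arrays they were 245 and 270 in the lowest class and 122 and 82 in the highest, so the direction in each class turned there. The part of DNA amount in this result was not tested.

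Borders of the old-sorting profile also lay at the fusion partners. BCR and ABL1 are joined in K562 and the joined segment is present in extra copies. After old sorting a border appeared in the windows around position 133600000 of chromosome 9 (ABL1, EXOSC2, FUBP3 and PRDM12), where mean timing over 3 windows went from 0.55 to -0.77. After new sorting the same windows stayed early on both sides, at 0.84 and 0.88. The summed signal of the new-sorting array relative to U2OS stepped from -0.03 to 2.14 log2 units there.

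At position 23600000 of chromosome 22 (BCR and RAB36), timing after old sorting went from -0.90 to 0.29, and after new sorting stayed at 0.51 and 0.52, while the summed signal stepped from 1.16 to -1.10. Both old-sorting borders therefore coincided with a step in summed signal, and the higher-signal side was the later one. With the deposited log ratio, the old-sorting values were 1.30 and -0.06 at ABL1 and -0.26 and 0.84 at BCR. The new-sorting values were then 1.15 and 0.90 at ABL1 and 0.50 and 0.83 at BCR, so the step after old sorting was present there in both places. With loess within arrays the old-sorting values were 0.64 and 0.02 at ABL1 and -0.12 and 0.28 at BCR.

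At the gene level, 17.2% of the 23737 named autosomal genes (4081) had opposite signs, and 18.6% differed by 1 log2 unit or more. Of the same genes 56.9% were early and 26.0% late on both arrays. Most genes rest on few probes, and gene names are those of the array design. The replication factors, which load and fire origins, were mostly early on both arrays, with 18 of 21 early, 1 late and 2 opposite. Origin recognition subunits included both early and late genes. ORC1 read 1.27 after new and 0.76 after old sorting (5 probes), ORC2 1.13 and 0.64 (6 probes) and ORC5 1.06 and 0.19 (7 probes), while ORC4 was late on both at -2.35 and -1.21 (6 probes). The 2 opposite members were MCM3, a subunit of the replicative helicase (1.15 and -0.46, 2 probes), and CDT1, which loads that helicase (0.21 and -0.87, 1 probe). MCM3 was early on both with the deposited log ratio (1.20 and 0.37), with loess within arrays and at an offset of 0. With the deposited log ratio and with loess the opposite members were CDT1, CDC6 and POLA2, and at an offset of 0 CDT1.

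Of the erythroid and megakaryocytic genes, 23 of 29 had probes. On both arrays 16 were early and 1, BCL11A, a repressor of fetal globin genes, was late at -1.06 and -0.47 (7 probes). RUNX1, a transcription factor of blood formation, read 1.04 after new and 0.41 after old sorting (25 probes). EPB41, a membrane skeleton gene, read 1.14 and 0.40 (21 probes), and ANK1, the red cell ankyrin, 0.85 and 0.48 (20 probes). Opposite signs were computed for 6 genes (26.1%, against 17.2% of all named genes). For 1 of these, the erythroid transcription factor gene NFE2 (1 probe), the old-sorting net signals were 4.88 and 7.83 units, close to background, so its ratio there was not measured. HBE1, the embryonic globin gene, read 1.03 and -0.85 (2 probes), and SLC4A1, the band 3 anion exchanger, 0.11 and -1.79 (1 probe). GATA2, a transcription factor gene of blood progenitors, read 0.26 and -0.07 (2 probes), and EPOR, the erythropoietin receptor gene, 0.59 and -0.34 (1 probe). With loess within arrays HBE1, SLC4A1 and EPOR no longer had opposite signs, while HBB, ITGA2B and ZFPM1 did. The old-sorting net signals were -7.00 and 6.27 units for ITGA2B and 3.23 and 14.0 units for HBB (1 probe each). These were also close to background, so the signs of both genes after old sorting rest on little or no signal. With NFE2, ITGA2B and HBB counted, the number of opposite genes under loess was again 6 (26.1%, against 14.0% of all named genes). It was 7 with the deposited log ratio (30.4% against 13.1%) and 8 at an offset of 0 (34.8% against 13.2%). NFE2 was counted at both settings, and ITGA2B at an offset of 0. The deposited values of NFE2, -0.45 after new and 0.07 after old sorting, were the same as those of RPS2, ZNF414 and ZNF497. Its sign there was therefore not measured either.

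Very long genes give values over many probes. All 14 were late after new sorting, and 11 were late after old sorting too. CNTNAP2, a neuronal adhesion gene, read -2.37 after new and -0.94 after old sorting over 187 probes (SD over probes 0.62 and 0.57). DLG2, a synaptic scaffold gene, read -1.96 and -0.80 (161 probes), and CSMD1 -1.94 and -0.27 (159 probes). The other 3 were late after new and early after old sorting, among them PTPRD, a receptor phosphatase gene on the short arm of chromosome 9, at -1.49 and 0.34 (178 probes), and LRP1B, a lipoprotein receptor family gene, at -1.77 and 0.06 (147 probes). The old-sorting early signal of these genes was low, with medians of 7.53 units for PTPRD and 11.6 units for LRP1B. All 14 genes were late on both arrays with the deposited log ratio and with loess within arrays, where PTPRD after old sorting read -0.07 on the deposited scale against -2.69 after new sorting.

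Cross-hybridization of probes in gene families with near-identical copies was not tested. Over all named genes 17.2% had opposite signs. Of 52 olfactory receptors, which lie in late clusters in most cells, 20 were early on both, 16 late on both and 16 opposite (30.8%). That share was 19.2% with the deposited log ratio, 17.3% with loess within arrays and 44.2% without background correction, against 13.1%, 14.0% and 24.1% of all named genes. OR8U8, with 29 probes, was late on both at -2.19 and -0.97. Of 60 ribosomal protein genes, 44 were early on both, 3 late on both and 13 opposite (21.7%). Among these 13, RPL5 read 1.08 and -0.25 over 3 probes. The opposite share of ribosomal protein genes was 13.3% at an offset of 0 and with the deposited log ratio. All named genes had 13.2% and 13.1% there. With loess within arrays the ribosomal share was 23.3%, against 14.0%, and without background correction 28.3%, against 24.1%. Of 224 zinc finger genes on chromosome 19, 83 were early on both, 95 late on both and 46 opposite (20.5%), with ZNF536 late on both at -1.64 and -0.82 (14 probes).

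Domain borders were defined as sign changes of a running mean over 3 windows with at least 3 windows of one sign on each side. The new-sorting array had 1050 and the old-sorting array 1087. A border was kept if the other array had a border of the same direction within 200 kb. By this rule 815 were kept, 77.6% of the new-sorting and 75.0% of the old-sorting borders, against 10.9% and 10.6% of all window boundaries that lay as close to a border of the other array. Of the kept borders, 44.0% (359) fell at the same window boundary and 84.7% within 100 kb. Median domain length was the same on both arrays, 1.1 Mb for early and 1.3 Mb for late domains. The old-sorting profile was more broken, with 169 early and 170 late runs too short to count as domains against 59 and 106.

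Probes flanking some of the steepest kept borders are shown as examples, one on the late and one on the early side. Each border rests on the means of several windows and not on such a pair. The first pair flanks a late to early border near BMP4, CDKN3 and CNIH at position 54650000 of chromosome 14. Mean timing over 3 windows went there from -2.31 to 1.01 after new and from -1.11 to 0.64 after old sorting. The second pair flanks a late to early border at position 74100000 of chromosome 16, which went from -1.86 to 1.01 and from -1.24 to 0.49 and was also present in U2OS. Neither border lay between adjacent windows. No window with 3 probes was available from 54500000 to 54800001 on chromosome 14 and from 74000000 to 74200001 on chromosome 16. Each position is the midpoint of that stretch, so where within it timing changes was not measured. Capitals mark G and C, which made up 36.7% to 38.3% of each probe. No gene is named for these 4 probes, whose coordinates are on hg19 and whose strand is not given in the sources used here.
chr14:54470156-54470215, late side: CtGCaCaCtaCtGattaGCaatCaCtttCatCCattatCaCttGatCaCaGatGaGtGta
chr14:54831594-54831653, early side: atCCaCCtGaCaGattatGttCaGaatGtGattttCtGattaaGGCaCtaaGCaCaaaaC
chr16:73998729-73998788, late side: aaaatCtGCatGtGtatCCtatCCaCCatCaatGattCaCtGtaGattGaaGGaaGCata
chr16:74202842-74202901, early side: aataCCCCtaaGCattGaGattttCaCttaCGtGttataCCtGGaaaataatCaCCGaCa

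Single probes were noisier than the windows they belong to. The late-side probe on chromosome 14 read -0.06 after new and -0.29 after old sorting, and the early-side probe 1.57 and 0.64. The chromosome 16 probes read -0.66 and -1.12 on the late side and 0.68 and 1.08 on the early side. At both borders the early-side probe was higher than the late-side probe on each array.

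Borders with a larger step on the array labelled 44k were kept more often. That step was read where the array labelled 44k had at least 3 probes within 500 kb on each side. The new-sorting borders so read were ranked by it and divided into 4 equal classes. From the smallest to the largest step, 61.3%, 78.2%, 81.6% and 89.3% were kept. For the old-sorting borders the shares were 30.1%, 78.4%, 93.7% and 99.3%. The array labelled 44k correlated more closely with the new-sorting than with the old-sorting profile (0.952 against 0.789 over windows). Its step therefore partly ranks old-sorting borders by whether the new-sorting array has them, so part of this rise is built in. Under the deposited log ratio the shares of old-sorting borders were 60.3%, 89.7%, 96.4% and 100%, so the smallest-step class depended most on the correction. New-sorting borders that also lay in the U2OS profile were kept in 88.5% of cases and the others in 72.1%. For old-sorting borders these shares were 89.0% and 68.8%. In the dimmest class of flanking early signal, 43.1% of old-sorting borders were kept, against 79.7% to 86.2% in the other classes. Where neither flanking window held a gene, 49 of 54 new-sorting and 43 of 73 old-sorting borders were kept.

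**Figure D4:**
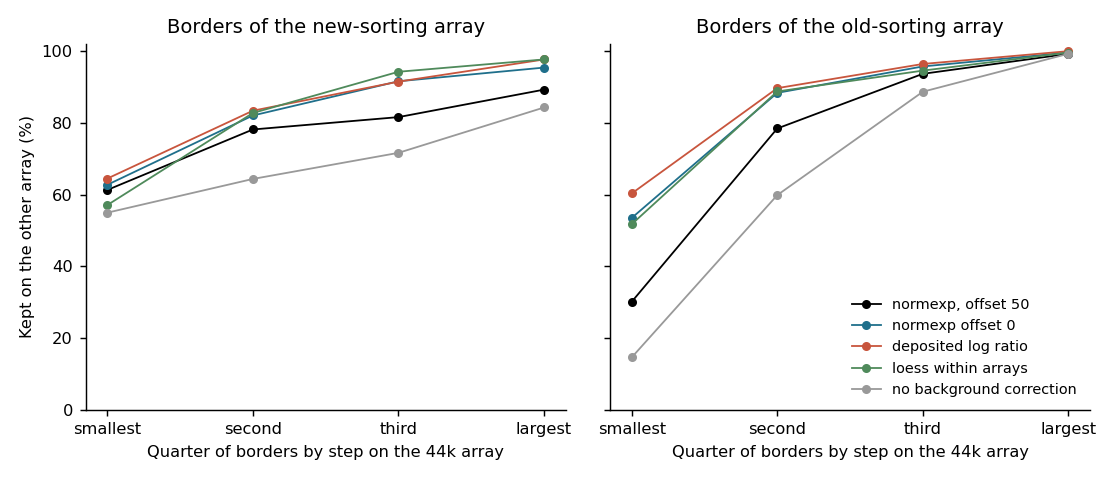
Percentage of new-sorting (left) and old-sorting borders (right) kept on the other array, under 5 corrections (lines). Borders are in 4 equal classes by their step on the array labelled 44k. Borders at which that array had fewer than 3 probes on a side within 500 kb are left out. With the correction used here there were 1050 and 1087 borders before that, and the number differed between corrections. For the old-sorting borders the percentage rises from 30.1% to 99.3% with the correction used here.

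At borders present on only one array the other profile mostly stepped in the same direction. At 228 of the 235 new-only borders (97.0%) the old-sorting profile stepped in the same direction. Of all 235, it stayed late on both sides at 159, early on both sides at 22 and crossed 0 at 54. At 229 of the 272 old-only borders (84.2%) the new-sorting profile stepped in the same direction. Of all 272, it stayed late on both sides at 137, early on both sides at 101 and crossed 0 at 34. The array labelled 44k stepped in the border's direction at 98.3% of new-only borders, with a median of 0.97 log2 units, and at 76.6% of old-only borders, with a median of 0.34. At kept borders of the new-sorting array its median step was 1.33.

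**Figure D5:**
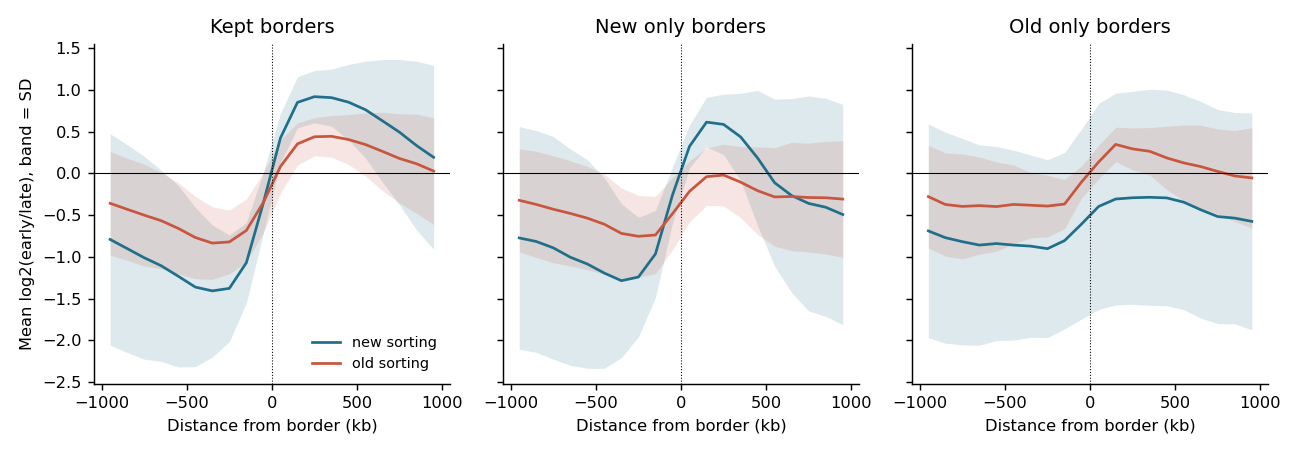
Mean timing after new and old sorting by distance from kept, new-only and old-only borders, turned so that the late side is on the left; bands are the SD over borders. Within 500 kb, kept borders went from -1.11 to 0.79 after new and from -0.69 to 0.34 after old sorting, new-only borders from -0.66 to -0.12 after old sorting, and old-only borders from -0.81 to -0.32 after new sorting.

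Among the steepest kept borders was an early to late border between RBM19 and TBX5, a T-box gene of heart and limb development, on chromosome 12. It went from 1.15 to -1.44 after new and from 0.81 to -1.30 after old sorting. The border at WRN, a RecQ helicase gene, on chromosome 8 went from 1.15 to -1.94 and from 0.66 to -1.06, and the one at PDCD6IP on chromosome 3 from 1.12 to -1.47 and from 0.56 to -1.19. The flanking windows of each of these kept borders were not adjacent. Their steps therefore span a stretch without a window, the same on both arrays. Among new-only borders, a pair enclosed a small early domain on chromosome 6. It began near CENPQ, a centromere protein gene, and MUT, the methylmalonyl-CoA mutase gene, where new-sorting timing went from -1.74 to 0.84 and old-sorting timing from -1.07 to -0.12. It ended near CRISP1, DEFB110 and DEFB114, where new-sorting timing went from 0.83 to -1.76 and old-sorting timing from -0.28 to -0.92. The array labelled 44k stepped by 1.50 and 1.76 log2 units at these positions. Other new-only borders lay at RNF144A, a ubiquitin ligase gene on chromosome 2, with steps of 2.95 log2 units after new and 1.35 after old sorting, and at GOLIM4, a Golgi membrane protein gene on chromosome 3, with steps of 2.61 and 1.20. The old-sorting profile did cross 0 between the flanks at both, from 0.44 to -0.90 at RNF144A and from an early-side mean of 0.20 at GOLIM4, but no border of the same direction met the rule within 200 kb. The flanking windows at RNF144A and at GOLIM4 were also not adjacent.

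The windows that differed most after scaling to the same MAD are given with their signals. Of those later after old sorting, the window chr22:23300001-23400000 read 0.17 after new and -1.41 after old sorting, with new-sorting signals of 1807 units (early) and 1441 units (late). The window at HECA and TXLNB (chr6:139500001-139600000) read -0.15 and -1.46, with 747 and 741 units. Of those later after new sorting, a window in ERBB4, a receptor tyrosine kinase gene (chr2:212900001-213000000), read -1.99 after new and 0.65 after old sorting, with old-sorting signals of 11.2 and 23.4 units. A gene-free window on chromosome 12 (chr12:85900001-86000000) read -2.05 and 0.53, with 5.16 and 21.4 units, and one on chromosome 14 (chr14:47100001-47200000) -2.35 and 0.37, with 2.64 and 31.3 units.

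A probe from each of 3 such windows is shown to set the sequence beside the signal behind it. They are called bright or dim by their old-sorting signals. The first lies in the window of chromosome 22 above, and the others lie in the gene-free windows of chromosomes 12 and 14, with G and C in capitals.
chr22:23359952-23360011, bright: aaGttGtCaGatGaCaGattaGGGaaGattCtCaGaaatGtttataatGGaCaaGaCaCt
chr12:85949922-85949981, dim: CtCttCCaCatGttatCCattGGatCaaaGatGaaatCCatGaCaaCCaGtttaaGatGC
chr14:47139255-47139314, dim: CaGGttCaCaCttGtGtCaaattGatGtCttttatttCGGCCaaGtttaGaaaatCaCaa

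The bright probe read -0.08 after new and -1.30 after old sorting, from 234 units (early) and 1237 units (late) after old sorting. The chromosome 12 probe read -1.81 and 0.49, with an old-sorting early signal of -0.62 units and a late signal of 14.3 units, so its early value after old sorting was at background. The chromosome 14 probe read -2.39 and 0.70, with 29.2 and 28.3 units after old sorting against 22.5 and 371 units after new sorting. After new sorting the chromosome 12 probe had a late signal of 162 units. The late signals of both dim probes were thus lower after old sorting, while their GC content (38.3% and 35.0%) lay within the 5th to 95th percentile of all probes.

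A gene-free window on chromosome 8 (chr8:76700001-76800000) was among the 5 that were later after new sorting. It had mean signals of 40.0 and 199 units after new and 1614 and 1482 units after old sorting. In all 5 named windows of each direction the array labelled 44k, with 1 to 3 probes each, took the same sign as the new-sorting array.

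Loci that distinguish the cell lines were taken from arrays other than these. In 366 windows of 250 kb that were early on the array labelled 44k and late in U2OS, the new-sorting array was early in 348 (95.1%) and the old-sorting array in 277 (75.7%). In 484 windows late on that array and early in U2OS, the new-sorting array was late in 472 (97.5%) and the old-sorting array in 459 (94.8%). Both profiles therefore took the K562 side in most of these windows. Over all 8436 windows of this size, 4.20% (new) and 11.7% (old) had the sign opposite to the array labelled 44k, and the difference between the shares was not tested.

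Other pairs in the series give a scale for these values. The manual pair of U2OS arrays had r = 0.930, opposite signs in 6.79% of windows and 84.0% and 80.2% of borders kept. The automated pair had r = 0.979 and 3.52% of windows opposite, and 774 of its 815 and 865 borders were kept. The pair of sorting methods, at 0.791, 12.7% and 77.6% and 75.0%, had a lower r, more opposite windows and fewer borders kept than both, but each value comes from a single pair, and the pairs also differ in cell line and signal, so the difference was not tested.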

How the data were processed

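The deposited values were intensity per spot and channel and a log10 ratio, written by Agilent Feature Extraction 11.5.1.1 on build hg19, per the file headers. The authors' log10 ratio (late over early) was background-subtracted and dye-normalized by that software, per the file headers, and was used, turned and on the log2 scale, as an alternative. Some dim probes share the same deposited value on an array, after centring -0.45 for new and 0.07 for old sorting. Probes with both values count as opposite without a measured ratio, and they were not left out. The submitters' processing notes list Agilent Feature Extraction 9.1. Cy3 held the early and Cy5 the late fraction, with no dye swap.

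Control spots and spots marked non-uniform or outlying were dropped, saturated spots kept. The normexp method of limma 3.58.1 (R 4.3.3), with an offset of 50, corrected spot means for local background, without loess, and repeat probes averaged. An offset pulls dim ratios towards 0. Windows needed 3 probes, and those 50 to 1000 kb were tried. Arrays were grouped by title. Comparisons carry no test, since each method has 1 array. The number of arrays limits the precision. The calculations (Python 3.11.15) were tested on simulated profiles.

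Named genes were the members with most probes in each list and those on opposite sides with the largest difference. A few members that this rule names are not reported here. Named windows and borders were the 5 most extreme per kind, of which a part is printed, and probes without a gene name were shown for them. The members, lists and rules were chosen with earlier results of these data known. The gene table supplied was on another build and its coordinates were not used. Whether a probe is exonic or intronic was not analysed here. Correlations over windows are descriptions without p-values.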

Additional observations from a re-analysis of the deposited data

How the results depend on the processing

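No paired analysis was possible because each sorting method has 1 array and no result comes from a test. Of 105 recomputed values, 44 stayed within the spread between chromosomes, the 95% Wilson interval of a share or 1.5 times a count and 61 moved beyond it. The cause was not tested. The Wilson intervals treat windows and borders as independent, which they are not, and are therefore too narrow (12.3% to 13.1% for the opposite share). Small shifts thus count as moved, and the tally is a description and no measure of reliability. Some of the 44 are fixed by construction, since scaling or centring an array leaves r and the classes as they are. The deposited log ratio gave r = 0.877, 7.51% of windows opposite, 54.8% in the same class, a MAD ratio of 0.702 and 84.4% (new) and 86.3% (old) of borders kept. Without background correction r was 0.712, with 16.6% opposite, 39.3% in the same class and 68.8% and 65.2% of borders kept. An offset of 0 gave 0.863, 8.21%, 53.6%, a MAD ratio of 0.658, and 83.0% and 83.9%. Loess within arrays gave r = 0.892, 7.82% opposite, 55.3% in the same class, and 82.7% and 83.5% of borders kept. Without dim probes r was 0.854 over the 7970 windows left, and 26.4% were opposite. Of all 7970, 1244 differed by 1 log2 unit or more and 51.5% shared a class. The MAD ratio was 0.757, and 48.5% and 40.8% of borders were kept. Windows of 250 kb gave 3129 differing windows and 56.3% and 48.6% of borders kept, with the 200-kb tolerance then below 1 window. Windows of 50 kb gave 13.4% opposite, a MAD ratio of 0.578, and 70.2% and 64.9% of borders kept. At least 5 probes gave 11.2% opposite, 3839 differing, 49.1% in the same class and a MAD ratio of 0.573. Scaling to the same MAD gave 13.2% opposite, a ratio of 1 by construction and 71.8% of old-sorting borders kept. Mean centring gave 14.2% and 68.2%, and adding chromosome X 13.3% opposite. A border tolerance of 100 kb kept 65.7% and 63.5%, 500 kb 82.7% and 79.9%, and borders defined as steps 82.4% and 61.6%. With 3 classes, 66.2% of windows shared a class. The earliest class taken from the array labelled 44k had 60.0% in the same class. For r in the dimmest windows, 0.678 was found with U2OS brightness classes and 0.454 with the deposited log ratio. Settings by brightness, gene list, chromosome 9, ABL1 and BCR were added after seeing the data. Probes well above background made up 86.7% (new) and 44.7% (old) in the early channel and 60.1% and 76.2% in the late channel.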
